A study of Mus musculus with 11 samples.

Results

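The 38 genes described here encode the enzymes of glycolysis (19 genes), the pyruvate dehydrogenase step (4 genes) and the citrate cycle (15 genes), found by their gene names in a table of 54532 mouse genes. The cells, CD8+CD44+Ly49+CD122+ and called CD8+ Tregs because they restrain other T cells, were sorted from the spleen of wild-type (WT) C57BL/6J mice. Of the 11 libraries, 3 came from young males, 3 from young females, 2 from middle-aged males and 3 from middle-aged females. The young mice were 2 to 3 months old, and the middle-aged mice, which the labels call Old, were 10 to 12 months old by the labels, while the study's account of the sequencing gives a single age for each group, within these ranges. No transgene, deletion or treatment is named for any group. The titles number the libraries of each group from 1 to 3, and the study describes its sequenced replicates as biologically independent. Whether libraries of the same number share a sort, a day or a run is not given in the sources used here.

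Glycolysis is the cytosolic path that splits glucose into pyruvate, and lactate dehydrogenase then turns pyruvate into lactate. The pyruvate dehydrogenase complex instead feeds pyruvate, as acetyl-CoA, into the mitochondrial citrate cycle, whose reduced carriers supply the respiratory chain. T cells are known to raise glycolysis when they are activated and to lean more on mitochondrial oxidation as resting memory cells. A transcript level reports neither enzyme activity nor flux.

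Total counts had a median of 18955305. The shallowest libraries were young male 1 (6135736) and young female 1 (8421396), and the deepest held 24394532. A count of 0 allowed up to 0.119 to 0.542 CPM (counts scaled to library size, with TMM factors) by library, from 3 counts, for counting error only. All 10 genes that mark the sorted cells were found in every library, and their summed level was 6379 to 9775 CPM. Middle-aged female 2 stood apart. Its 10 myeloid marker genes summed to 2717 CPM against 59.1 to 404 CPM elsewhere (S100a8, a neutrophil gene, was at 700.2 CPM against 0 to 38.6 CPM). Lyz2 (1055 CPM), S100a9 (763 CPM), Cd14, Cd68 and Itgam were also highest there, whereas Csf1r, Adgre1, Mpeg1 and Cebpb of the same list were not. Its 12 cell cycle genes summed to 1804 CPM against 347 to 823 CPM. The plasma cell genes summed there to 366 CPM against 88.0 to 164 CPM, and the dendritic genes to 925 CPM against 277 to 510 CPM. In bulk RNA, fewer cells of a type and less RNA per cell cannot be told apart. Young male 1 had Csf1r, Adgre1, Cd14, Cd68, Itgam and Mpeg1 of the myeloid list at 0. Its other myeloid genes were found, with Lyz2 at 94.5, Cebpb at 30.9, S100a9 at 14.8 and S100a8 at 12.1 CPM. The whole list summed to 152 CPM in that library.

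Promoter sequence was read for 37 of the 38 genes from RefSeq windows on GRCm38.p6, taken here as the 250 bases before each transcript start. The letters ACGTG, the core that hypoxia-inducible factor recognises, were searched on both strands, as was CACGTG, the E-box that Myc recognises, which overlaps it. ACGTG stood before 9 of 19 glycolysis genes (47.4%), 1 of 4 pyruvate dehydrogenase genes and 3 of 14 citrate cycle genes (21.4%), and before 18.5% of all genes. CACGTG stood before 3 of 19 glycolysis genes (15.8%), 1 of 14 citrate cycle genes (7.14%) and 6.86% of all genes. By window the order of the pathways turned, with ACGTG in 38.7% of 31 glycolysis windows, 40% of 20 citrate cycle windows and 16.6% of all windows, and a gene with more windows has more chances of a match. Most of the citrate cycle windows with a match were windows of Ogdh, several of them overlapping. A match describes the letters only. Matches were counted on each strand, so a CACGTG gives a match to ACGTG on both. The windows of Pgam1, the 1 enzyme gene whose age groups did not overlap, and of Ldha, with 5 matches to ACGTG in its first window, are shown 5′ to 3′, both on the + strand, with the matches in capitals.
Pgam1 (chr19:41911621-41911870): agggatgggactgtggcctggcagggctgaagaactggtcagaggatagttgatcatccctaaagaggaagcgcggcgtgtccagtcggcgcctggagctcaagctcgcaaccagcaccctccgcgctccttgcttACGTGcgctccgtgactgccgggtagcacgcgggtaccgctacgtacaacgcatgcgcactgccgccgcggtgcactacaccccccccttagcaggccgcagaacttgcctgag
Ldha (chr7:46845554-46845803): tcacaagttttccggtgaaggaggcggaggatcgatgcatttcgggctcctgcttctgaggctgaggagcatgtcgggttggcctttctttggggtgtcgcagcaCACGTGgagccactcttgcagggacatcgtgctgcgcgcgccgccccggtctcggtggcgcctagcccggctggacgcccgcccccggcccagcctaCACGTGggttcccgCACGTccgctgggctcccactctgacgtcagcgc

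Which enzymes changed between young and middle-aged CD8+ Tregs was examined first. All 38 genes passed the filter on low counts and were tested among 13129 genes. None had an adjusted p under 0.05 (edgeR's quasi-likelihood test, Benjamini-Hochberg adjustment), against 0.0229% of all genes tested. Pgam1 was the 1 member with an unadjusted p under 0.05, against 2.99% of all genes (2% higher, 0.99% lower), and the 1 member whose age groups did not overlap, against 1.32% of all genes (1.02% higher). A count of 1 in 38 is close to these shares and is no result about the enzymes as a group. DESeq2 gave 0 members at an adjusted p under 0.05, against 0.86% of all genes, and limma voom with sample quality weights gave 1, Pgam1, against 1.05% of all genes. The log2 fold change, middle-aged over young, was positive for 22 of 38 members, against 50.4% of all genes.

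**Figure D1:**
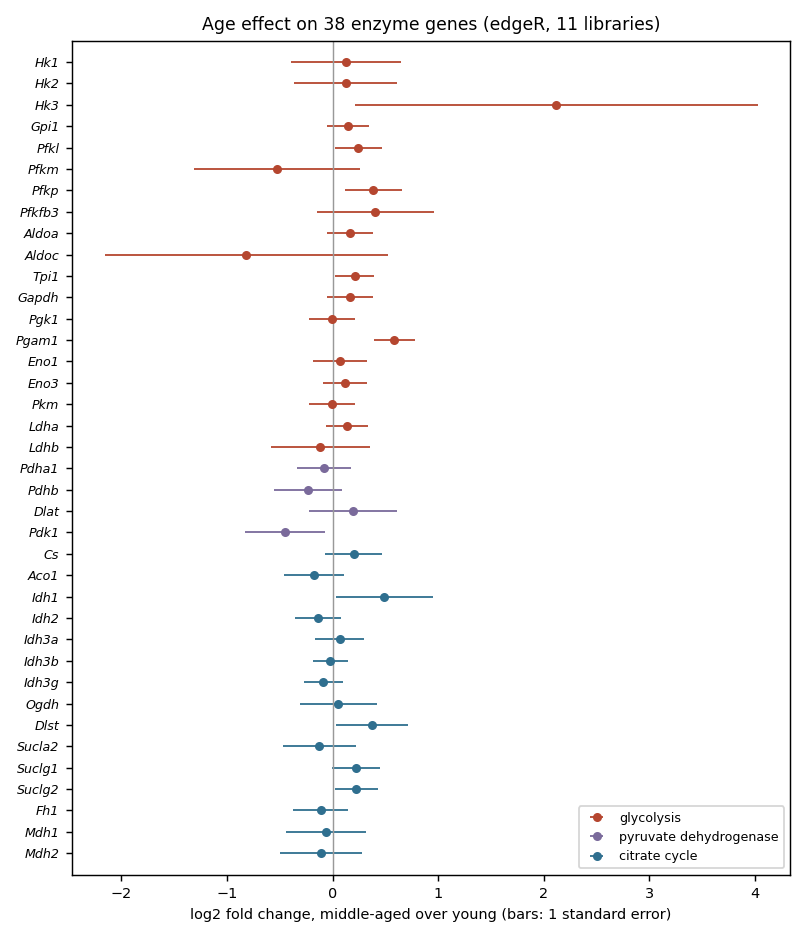
The log2 fold change of each of the 38 enzyme genes, middle-aged over young, is plotted as a point with a bar of 1 standard error, coloured by pathway. Pgam1 stands at 0.59 with a standard error of 0.19, several further bars also miss 0 (Pfkp at 0.39, Dlst at 0.37 and Pdk1 at -0.45 among them), and Hk3, at 2.12, has the widest bar.

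Pgam1, phosphoglycerate mutase, moves the phosphate of 3-phosphoglycerate to the next carbon, on the way to pyruvate. It lies on chromosome 19 from 41911871 to 41918664 on the + strand. Its level was 98.8, 86.9 and 93.2 CPM in the young males and 57.1, 93.0 and 79.2 CPM in the young females. In the middle-aged males it was 128 and 134 CPM, and in the middle-aged females 104, 144 and 113 CPM. Every middle-aged library was above every young one. The mean was 84.7 ± 15.1 CPM in the young (SD, n = 6) and 125 ± 16.1 CPM in the middle-aged libraries (SD, n = 5), and the log2 fold change was 0.59 (standard error 0.19). In edgeR's quasi-likelihood test the adjusted p was 0.887, from 0.0103 before adjustment. An exact 2-sided permutation test on mean log2 CPM gave p = 0.00216, the smallest that it can give. The same difference in log2 CPM, taken among the libraries of the same number, was 0.62 for number 1, 0.63 for number 2 and 0.40 for number 3.

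The Pgam1 difference was 0.50 (standard error 0.21, unadjusted p = 0.0327 in edgeR) without middle-aged female 2, the library high in myeloid genes. With library size alone as the scaling, the age groups of Pgam1 overlapped. The table also holds the pseudogenes Pgam1-ps1 and Pgam1-ps2, with 54 and 265 counts against 21284 of Pgam1. With both added to Pgam1 the difference in mean log2 CPM was 0.57, as it was for Pgam1 alone. How reads shared by a gene and its copies were assigned is not given in the sources used here.

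Of the 19 glycolysis genes, 14 were on the positive side of 0 by log2 fold change and 5 on the negative, with a median of 0.14 against 0.0028 over all genes tested. The median was 0.07 without middle-aged female 2, the library high in myeloid and cell cycle genes, and 0.21 without middle-aged female 3 or without young female 2. Of the 19 genes, 1 had an unadjusted p under 0.05. The genes are taken in the order of the path, each step by its isoform with the most counts per kilobase of gene length.

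Hexokinase traps glucose by phosphorylation. Hk1, an isoform that binds mitochondria, had 44.3, 175 and 169 CPM in the young males and 31.5, 178 and 174 CPM in the young females. It had 43.4 and 182 CPM in the middle-aged males and 123, 185 and 192 CPM in the middle-aged females. The low values were those of the libraries numbered 1 in both age groups, and the log2 fold change was 0.13 (standard error 0.52). Per kilobase of gene length, Hk1 made up 92.8 ± 4.91% (SD, n = 6) of hexokinase in young and 88.3 ± 9.29% (SD, n = 5) in middle-aged libraries. Hk2, the isoform induced on T cell activation, lay between 1.41 and 4.75 CPM. Hk3, a hexokinase of myeloid cells, was at 27.9 CPM in middle-aged female 2 and 0 to 4.12 CPM in the others, and it took 25.2% of that library's hexokinase. Without that library the difference between the age groups in the Hk1 share was -0.447 instead of -4.48 percentage points.

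Glucose phosphate isomerase makes fructose 6-phosphate. Gpi1 had 171, 252 and 227 CPM in the young males and 269, 280.3 and 234 CPM in the young females, and 268 and 281 CPM in the middle-aged males and 228, 327 and 221 CPM in the middle-aged females. The age groups overlapped (log2 fold change 0.14, standard error 0.20), and middle-aged female 2 was the highest library.

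Phosphofructokinase is the committed and most regulated step. Pfkp, the platelet-type isoform that T cells also use, had 274, 479.9 and 362 CPM in the young males and 186, 359 and 379.7 CPM in the young females. It had 325 and 467 CPM in the middle-aged males and 372, 579 and 469.9 CPM in the middle-aged females. The 2 lowest values were those of young female 1 and young male 1, both numbered 1, and the highest was that of middle-aged female 2. Among the libraries numbered 1, 2 and 3 the difference in log2 CPM, middle-aged minus young, was 0.62, 0.33 and 0.34. With the number added to edgeR's quasi-likelihood model, the adjusted p for age was 0.402, from 0.0117 before adjustment. The log2 fold change of 0.39 (standard error 0.27) had an adjusted p of 1.00 in edgeR's quasi-likelihood test. Per kilobase Pfkp made up 55.9 ± 1.88% (SD, n = 6) of phosphofructokinase in young and 59.5 ± 4.49% (SD, n = 5) in middle-aged libraries, with middle-aged female 2 at 66.6%, and the difference of 3.57 percentage points was 1.79 without it. Pfkm, the muscle type, made up 3.90% and 2.49%, and Pfkl, the liver type, the rest. Pfkfb3, which makes the activator fructose 2,6-bisphosphate, lay between 0.903 and 19.6 CPM.

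Aldolase splits the doubly phosphorylated sugar into triose phosphates. Aldoa had 839, 815 and 572 CPM in the young males and 831, 778 and 548 CPM in the young females, and 1022 and 856 CPM in the middle-aged males and 938, 645 and 608 CPM in the middle-aged females. The libraries numbered 3 held the 3 lowest values. Aldoc, the brain isoform, never took more than 0.410% of aldolase per kilobase. A further Ensembl identifier also named Aldoa had 4 counts in all.

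Triose phosphate isomerase interconverts the products of aldolase. Tpi1 had 147, 188 and 147 CPM in the young males and 172, 173 and 149 CPM in the young females, and 209.7 and 189 CPM in the middle-aged males and 182, 216 and 143 CPM in the middle-aged females. Middle-aged female 3 was the lowest and middle-aged female 2 the highest of all, so that the groups overlapped (log2 fold change 0.21, standard error 0.18).

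Gapdh oxidises glyceraldehyde 3-phosphate, and Pgk1 then makes the first ATP of the path. Gapdh had 617, 869 and 768 CPM in the young males and 1068, 1054 and 770.1 CPM in the young females, and 952 and 1118 CPM in the middle-aged males and 768, 1195 and 773 CPM in the middle-aged females. Pgk1, an X-linked gene, had 208, 149 and 137 CPM in the young males and 241, 166 and 133 CPM in the young females, and 172 and 167 CPM in the middle-aged males and 193, 201 and 133 CPM in the middle-aged females. Both genes overlapped between the age groups, with log2 fold changes of 0.16 (standard error 0.22) for Gapdh and -0.0035 (standard error 0.22) for Pgk1.

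Enolase follows Pgam1. Eno1 had the most counts per kilobase of all 38 genes (429.6 CPM per kilobase). It had 3205, 2358 and 1603 CPM in the young males and 2564, 2284 and 1620 CPM in the young females, and 2997 and 1970 CPM in the middle-aged males and 2924, 2236 and 1658 CPM in the middle-aged females. In each of the 4 groups the library numbered 1 was the highest, and the difference between age groups was 0.07 (log2 fold change, standard error 0.26). Per kilobase Eno1 made up 95.6% of enolase in young and 95.5% in middle-aged libraries, and Eno3, the muscle isoform, the rest.

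Pyruvate kinase ends the path. Pkm had 695, 891 and 691 CPM in the young males and 561, 869 and 719 CPM in the young females, and 584 and 714 CPM in the middle-aged males and 720.4, 1040 and 666 CPM in the middle-aged females. Ldha, the lactate-forming subunit, had 1032, 1407 and 1066 CPM in the young males and 1320, 1413 and 1096 CPM in the young females, and 1203 and 1358 CPM in the middle-aged males and 1356, 1775 and 1083 CPM in the middle-aged females. Middle-aged female 2 was the highest library for both, and the log2 fold changes were -0.0013 (standard error 0.22) for Pkm and 0.14 (standard error 0.20) for Ldha. Per kilobase Ldha made up 97.5% of lactate dehydrogenase in young and 97.8% in middle-aged libraries, and Ldhb, the subunit that favours pyruvate, the rest.

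The 4 genes of the pyruvate dehydrogenase step are the complex's Pdha1, Pdhb and Dlat and the kinase Pdk1, which switches the complex off. Of these, 1 was on the positive side of 0 by log2 fold change and 3 on the negative, with a median of -0.16, and 0 passed an unadjusted p under 0.05. Pdha1 was at 110 ± 28.2 CPM in the young (SD, n = 6) and 104 ± 21.2 CPM in the middle-aged libraries (SD, n = 5), and Dlat at 60.4 ± 31.7 and 68.7 ± 11.6 CPM. Pdhb was at 256 ± 112 CPM in the young (SD, n = 6) and 216 ± 56.5 CPM in the middle-aged libraries (SD, n = 5), and Pdk1 at 160 ± 77.5 and 119 ± 28.0 CPM. The log2 fold change of Pdk1 was -0.45 with a standard error of 0.38. Its difference in log2 CPM, middle-aged minus young, was 0.55, -0.61 and -0.50 among the libraries numbered 1, 2 and 3. The summed level of the 4 genes was 587 ± 52.0 CPM (SD, n = 6) in young, from 504 to 638 CPM, and 508 ± 49.4 CPM (SD, n = 5) in middle-aged libraries, from 461 to 589.7 CPM. This sum adds the inhibiting kinase Pdk1, whose mean went from 160 to 119 CPM, to Pdha1, Pdhb and Dlat. It is therefore not a level of the complex alone. The difference of -0.21 in mean log2 summed level depended on the summary, since it was -0.017 as the mean of log2 CPM over the 4 genes, where each gene weighs the same. On the summed level, with an SD within age groups of 0.13, it was -0.12, -0.31 and -0.21 among the libraries numbered 1, 2 and 3. The ranges overlapped.

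Of the 15 citrate cycle genes, 7 were on the positive side of 0 by log2 fold change and 8 on the negative, with a median of -0.02, and 0 passed an unadjusted p under 0.05. Their log2 fold changes ran from -0.18 (Aco1, cytosolic aconitase) to 0.49 (Idh1, the cytosolic NADP-dependent isocitrate dehydrogenase, standard error 0.46). Dlst, a core subunit of the 2-oxoglutarate dehydrogenase complex, had 0.37 (standard error 0.34). The 3 genes with the most counts per kilobase were the malate dehydrogenases Mdh1 (cytosolic) and Mdh2 (mitochondrial) and Idh3g, a regulatory subunit of the NAD-dependent isocitrate dehydrogenase.

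Mdh1 had 1020, 506 and 341 CPM in the young males and 1008, 544 and 352 CPM in the young females, and 785 and 451 CPM in the middle-aged males and 933, 475 and 359 CPM in the middle-aged females. Mdh2 had 1356, 551 and 365 CPM in the young males and 887, 523 and 342 CPM in the young females, and 862 and 453 CPM in the middle-aged males and 798, 569.5 and 339 CPM in the middle-aged females. For both genes the libraries numbered 1 were the highest and those numbered 3 the lowest in every group that had one, with log2 fold changes by age of -0.06 (standard error 0.38) and -0.11 (standard error 0.39). Idh3g had 208, 247 and 188 CPM in the young males and 254, 233 and 201 CPM in the young females, and 245 and 192 CPM in the middle-aged males and 194, 234 and 177 CPM in the middle-aged females. For Idh3g the libraries numbered 3 were again the lowest in every group that had one, but those numbered 1 were not the highest in every group. Its age groups overlapped (log2 fold change -0.09, standard error 0.18).

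The other citrate cycle genes overlapped between the age groups as well. Cs was at 183 ± 58.7 CPM in the young (SD, n = 6) and 209 ± 36.7 CPM in the middle-aged libraries (SD, n = 5). Of the catalytic and regulatory subunits of the NAD-dependent isocitrate dehydrogenase, Idh3a was at 164 ± 42.8 and 171 ± 31.4 CPM and Idh3b at 138 ± 12.7 and 135 ± 10.5 CPM. Idh2, the mitochondrial NADP-dependent enzyme, was at 61.4 ± 11.3 and 56.3 ± 9.80 CPM, and per kilobase it made up 88.6% of the NADP-dependent pair in young and 84.3% in middle-aged libraries, with Idh1 the rest. That difference of -4.28 percentage points was -2.55 without young female 2, whose Idh1, at 2.27 CPM, was the lowest, and -3.18 without middle-aged female 2, whose Idh1, at 19.6 CPM, was the highest.

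Ogdh was at 236 ± 97.2 CPM in the young (SD, n = 6) and 255 ± 97.0 CPM in the middle-aged libraries (SD, n = 5), and Dlst at 83.6 ± 36.7 and 109 ± 25.3 CPM. The Dlst difference in log2 CPM, middle-aged minus young, was 0.93, 0.56 and 0.12 among the libraries numbered 1, 2 and 3, and the level itself varied by number. Suclg1, the subunit common to both succinyl-CoA synthetases, was at 203 ± 48.1 and 236 ± 48.2 CPM. Its ATP-forming partner Sucla2 was at 133 ± 62.0 and 120 ± 42.8 CPM and its GTP-forming partner Suclg2 at 62.9 ± 14.2 and 72.3 ± 6.41 CPM. Fh1, fumarate hydratase, was at 70.0 ± 24.8 and 65.1 ± 10.6 CPM. For each of these genes the difference in means was smaller than the larger SD over all libraries of an age.

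Glycolysis was then set against the citrate cycle in each library. The summed level of the 19 glycolysis genes was 7137 ± 844 CPM in the young (SD, n = 6) and 7788 ± 934 CPM in the middle-aged libraries (SD, n = 5). That of the 15 citrate cycle genes was 2890 ± 626 and 2878 ± 436 CPM. The ratio of these sums was 1.94, 2.80 and 2.67 in the young males and 2.20, 2.92 and 2.62 in the young females, and 2.56 and 2.97 in the middle-aged males and 2.38, 3.02 and 2.69 in the middle-aged females. The age groups overlapped, with means of 2.53 ± 0.377 (SD, n = 6) and 2.73 ± 0.273 (SD, n = 5). The difference in mean log2 ratio, 0.12, was within the SD of 0.20 between libraries of the same age. Among the libraries numbered 1, 2 and 3 it was 0.26, 0.07 and 0.02. In the 9 libraries with over 10000000 counts, that is without young male 1 and young female 1, it was -0.02.

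**Figure D2:**
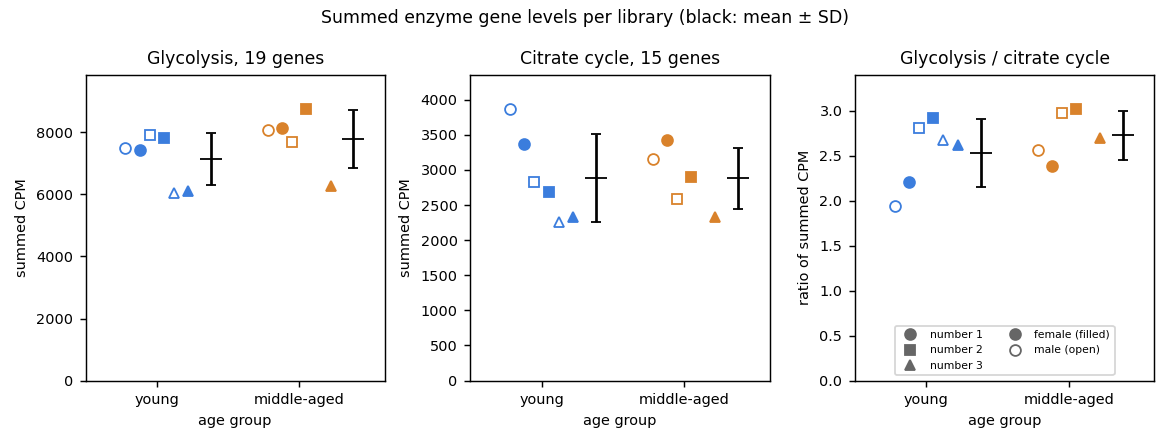
Summed CPM of the glycolysis genes, summed CPM of the citrate cycle genes and their ratio are plotted for each library by age group, with the symbol giving the number in the title and filled symbols the females, and black marks the mean ± SD. Libraries of the same number lie together in both age groups, and the 4 numbered 1 have the lowest ratios (1.94 to 2.56).

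The libraries were therefore compared by their number as well. The summed level of glycolysis was 7790 ± 374 CPM (SD, n = 4) in the libraries numbered 1, 8046 ± 492 CPM (SD, n = 4) in those numbered 2 and 6139 ± 117 CPM (SD, n = 3) in those numbered 3. That of the citrate cycle was 3456 ± 302, 2747 ± 144 and 2307 ± 38.9 CPM, and the ratio was 2.27 ± 0.266, 2.93 ± 0.0955 and 2.66 ± 0.0351. Mdh1 and Mdh2 alone made up 55.1 ± 4.78% of the citrate cycle sum in the libraries numbered 1, 37.1 ± 2.05% in those numbered 2 and 30.3 ± 0.784% in those numbered 3. Without these 2 genes the ratio was 5.05 ± 0.227, 4.66 ± 0.161 and 3.82 ± 0.0772, so the libraries numbered 1 passed from the lowest to the highest ratio. By age it was then 4.50 ± 0.569 (SD, n = 6) in young and 4.66 ± 0.548 (SD, n = 5) in middle-aged libraries.

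Of the 38 genes, 15 (39.5%) differed by number at an adjusted p under 0.05 in edgeR's quasi-likelihood test of the number in a model with sex and age, against 26.3% of all genes tested. These were 6 glycolysis, 2 pyruvate dehydrogenase and 7 citrate cycle genes. In 11 of the 38 members the libraries numbered 1 did not overlap with the other 7 libraries, against 25.1% of all genes. They were higher in 5 of the 38, against 12.8% of all genes, and lower in 6 of the 38, against 12.3% of all genes. The counts without overlap are close to their shares, while the 39.5% by adjusted p was above its 26.3%. No set test was run, so neither is a result about the enzymes as a group.

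Those higher in the libraries numbered 1 were Eno1, Pdhb, Sucla2, a subunit of succinyl-CoA synthetase, Mdh1 and Mdh2. Mdh1 was at 936 ± 108 CPM (SD, n = 4) in the libraries numbered 1 and 433 ± 81.9 CPM (SD, n = 7) in the rest, a difference of 1.13 in mean log2 CPM (edgeR adjusted p of the number 0.000123). Mdh2 differed by 1.12, Sucla2 by 0.85, Pdhb by 0.84 and Eno1 by 0.59. Eno1 was at 2923 ± 267 CPM (SD, n = 4) against 1961 ± 335 CPM (SD, n = 7).

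Those lower were Hk1, Aldoc, Pdk1, Idh3b, a further subunit of the NAD-dependent isocitrate dehydrogenase, Cs, the citrate synthase that opens the cycle, and Ogdh, the first subunit of the 2-oxoglutarate dehydrogenase complex. Hk1 was at 60.5 ± 41.8 CPM (SD, n = 4) against 179 ± 7.93 CPM (SD, n = 7), a difference of -1.78 in mean log2 CPM (edgeR adjusted p of the number 0.00847). Ogdh differed by -1.17, Pdk1 by -1.17 and Cs by -0.69. Idh3b did not overlap but differed by -0.16 and had an adjusted p of 0.298 in edgeR. Aldoc was at 0 to 0.0529 CPM in the libraries numbered 1.

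**Figure D3:**
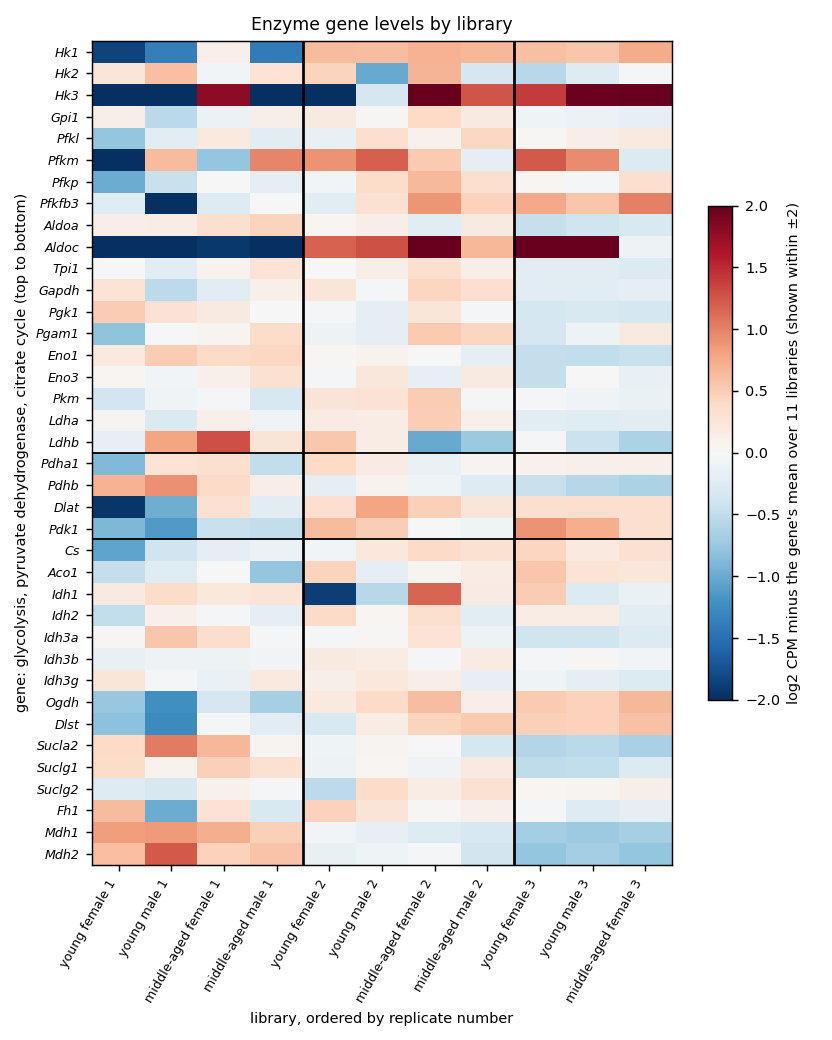
Each row is 1 of the 38 genes and each column 1 of the 11 libraries, ordered by the number in the title, and colour gives log2 CPM minus the gene's mean over all libraries, shown within ±2. The 4 libraries numbered 1 are low in Aldoc and Pdk1 and high in Mdh1 and Mdh2 in young and middle-aged mice, and 3 of them are low in Hk1, with middle-aged female 1 (123 CPM) near the mean.

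Gene length moved with this difference. The libraries numbered 1 held relatively more counts of short genes. Across the 31 enzyme genes with at least 5000 counts in all, the difference between the libraries numbered 1 and the rest had a Pearson r of -0.55 and a Spearman rho of -0.60 with log2 gene length, and across all 13129 genes tested -0.34 and -0.38. The points share the same 11 libraries, and genes are not independent replicates. Of 9 NK cell genes, Nkg7, a granule protein that CD8+ T cells also express, was at 6252 to 8718 CPM in the libraries numbered 1 and 1765 to 3433 CPM in the rest. The other 8 summed to 441 to 772 CPM and 483 to 1456 CPM. All 9 summed to 6824 to 9491 CPM and 2730 to 4613 CPM, so the list was higher with Nkg7 and not higher without it. The 8 B cell genes summed to 112 to 165 CPM in the libraries numbered 1 and 180 to 416 CPM in the rest. The sums of the plasma cell, myeloid, dendritic, erythroid and platelet, and CD4 T cell lists overlapped between these libraries. The part of length or depth in the difference between numbers was not tested. By age the 8 NK cell genes without Nkg7 summed to 702 to 1456 CPM in young and 441 to 1179 CPM in middle-aged libraries. Of these, named after their values were seen, Gzma was at 215 to 471 CPM in the young. In the middle-aged it was at 23.5 to 43.7 CPM, but 333 CPM in middle-aged female 2. Prf1 overlapped, at 117 to 328 and 229 to 318 CPM. The part of NK cells in the age differences was not tested.

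**Figure D4:**
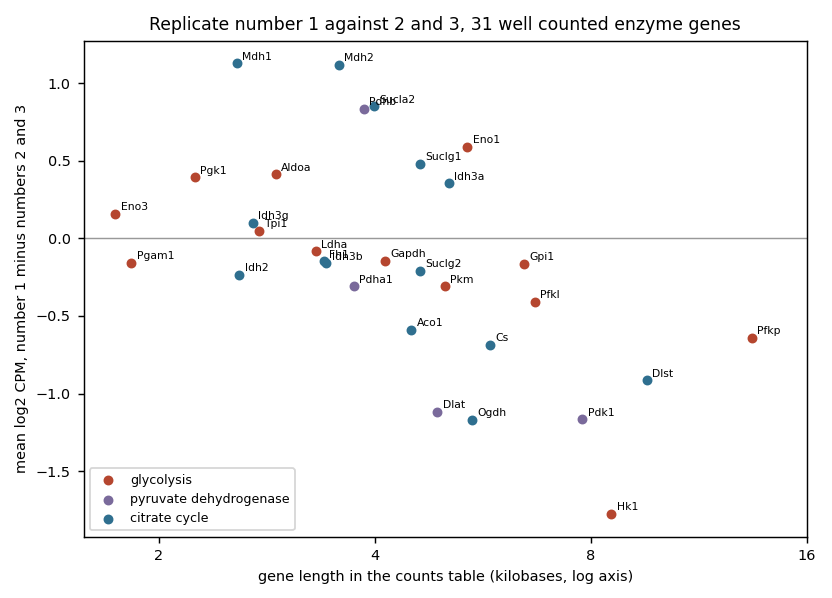
For the 31 enzyme genes with at least 5000 counts, the difference in mean log2 CPM between the libraries numbered 1 and the rest (vertical) is plotted against gene length in kilobases on a log axis (horizontal), coloured by pathway. Mdh1 (1.13) and Mdh2 (1.12) stand at the top, and Hk1 (-1.78) at the bottom among the longer genes.

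**Figure D5:**
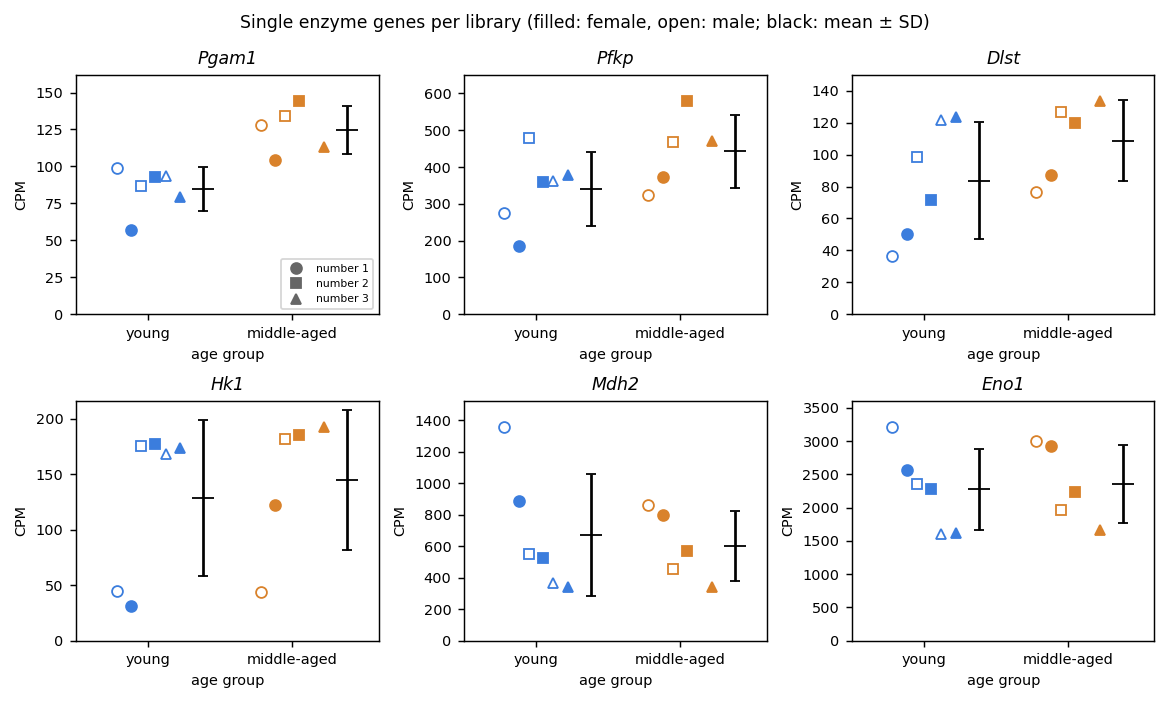
CPM of Pgam1, Pfkp, Dlst, Hk1, Mdh2 and Eno1 is plotted for each library by age group from a base of 0, with the symbol giving the number in the title, filled symbols the females and black marks the mean ± SD. Pgam1 separates the age groups (57.1 to 98.8 CPM against 104 to 144 CPM), whereas the values of Hk1, Mdh2 and Eno1 follow the number.

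Males and females were compared in the same model. No member passed an unadjusted p under 0.05 for sex in edgeR's quasi-likelihood test, against 0.754% of all genes, nor an adjusted p under 0.05, against 0.0381%. No member passed an unadjusted p under 0.05 for the interaction of age and sex, against 1.2% of all genes. The log2 fold change of Pgam1 by age was 0.50 (standard error 0.33) in males fitted alone and 0.67 (standard error 0.32) in females.

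Further genes of the pathway were taken from 5 lists, in which 58 of 75 genes found in the table were tested. None had an adjusted or an unadjusted p under 0.05 for age in edgeR, 41 were on the positive side of 0 by log2 fold change and 17 on the negative, and the median was 0.16 against 0.0028 over all genes. Of the lists, 12 tested genes were other glycolysis genes (10 positive), 18 belonged to pyruvate dehydrogenase or the citrate cycle (10 positive), 8 to the pentose phosphate path (6 positive), 7 to glucose and lactate transport (6 positive) and 13 to regulators (9 positive). The glucose transporter gene Slc2a1 was at 78.8 ± 13.7 CPM in the young (SD, n = 6) and 83.0 ± 22.0 CPM in the middle-aged libraries (SD, n = 5). Slc2a3, a further glucose transporter, was at 61.7 ± 14.4 and 54.3 ± 18.3 CPM. Myc, which drives glycolytic genes in activated T cells, was at 288 ± 60.5 and 317 ± 23.2 CPM, and Hif1a, the oxygen-regulated subunit of hypoxia-inducible factor, at 53.6 ± 21.9 and 41.5 ± 21.9 CPM. These 4 genes were chosen for their roles after their values were seen, and none of their differences exceeded the larger SD.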

How the data were processed

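RNA of sorted splenic CD8+ Tregs from 11 libraries was made into cDNA with a low-input kit (SMARTer) and sequenced. The deposited values are whole-number counts per Ensembl gene, which the authors did not normalize, with gene coordinates and lengths. The submitters' processing notes name kallisto and mm10, without roles. The step that made whole-number counts, its strand setting and its handling of shared reads are not given in the sources used here. Total counts were 6135736 to 24394532 per library, and without molecular identifiers limits cover counting error only. No 2 libraries held identical values, and 0 sample columns were left unused.

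Counts were analysed in R 4.3.3 with edgeR 4.0.16: TMM factors, low counts removed by filterByExpr with age as the group (at least 10 counts, 15 in total), robust glmQLFit on sex and age, and Benjamini-Hochberg adjustment over 13129 genes at 0.05. The sex term, the interaction of age and sex, and the number in the title (chosen after seeing the data) were tested likewise. A prior count of 2 was added for log2 CPM. Exact 2-sided permutation of the age labels was run on mean log2 CPM of each gene. Sums, ratios and shares over genes were described without a test. All 38 genes are accounted for. Values in every library are given for those with an unadjusted p under 0.05 for age or for the interaction, those whose age groups do not overlap, the isoform with the most counts per kilobase at each glycolysis step, and the 3 highest citrate cycle genes. From the further lists, up to 3 genes with an unadjusted p under 0.05 were to be named. The genes, the further lists and the marker lists (sorted cell, cell cycle, B cell, plasma cell, myeloid, dendritic, erythroid and platelet, NK cell, CD4 T cell) were chosen with earlier results of these data known.

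Alternatives were other scalings, filters, DESeq2 1.42.0, limma 3.58.1 voom, no sex term, blocks for the number, subsets of libraries, each library left out, and other summaries of the lists. The steps were tested on simulated data. Promoter windows came from RefSeq on GRCm38.p6, and the coordinates of 37 of 38 genes equalled those of GENCODE M21.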

Additional observations from a re-analysis of the deposited data

Results flagged for a closer look

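Within groups of 6 young or 5 middle-aged libraries, 1 library stood apart from the others (its gap to the nearest value over the group's whole range exceeded Dixon's limit) in 6 of 84 groups examined, where about 4.2 would be met by chance. Hk3, a hexokinase of myeloid cells, was at 27.9 CPM in middle-aged female 2 and at 0 to 4.12 CPM in the other middle-aged libraries. Idh1 was at 19.6 CPM in the same library and at 7.91 to 10.4 CPM in the others. This library also held the highest myeloid sum, 2717 CPM, and the part of such cells in either value was not tested. Pfkm was at 0 CPM in young female 1 and at 5.96 to 9.03 CPM in the other young libraries, and Pdha1 was at 56.4 CPM there against 111 to 138 CPM. Idh3a was at 241 CPM in young male 1 and at 124 to 167 CPM in the other young libraries. Young male 1 and young female 1 had the lowest total counts, 6135736 and 8421396. Idh3b was at 154 CPM in middle-aged male 2 and at 127 to 133 CPM in the other middle-aged libraries.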

How the results depend on the processing

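Each count of members is followed by the share of all genes in the same fit. Members at an adjusted p under 0.05 for age numbered 0 in edgeR (0.0229%), 1 with limma voom (1.05%, Pgam1), 2 with voom and a replicate block shared by both sexes (2.57%, Pgam1 and Pdk1) and 2 with DESeq2 and that block (3.29%, Pgam1 and Dlst). At an unadjusted p under 0.05 they numbered 1 in edgeR (2.99%), 3 with voom (8.96%), 3 with the replicate block within sex (6.37%), 4 with the shared block (8.87%: Pfkp, Pgam1 and Dlst higher, Pdhb lower), 8 with voom and the block (12.8%), 6 with DESeq2 and the block (14.1%), 0 in males alone (1.48%), 0 in females alone (2.09%), 3 in the libraries with over 10000000 counts (5.84%) and 4 in those numbered 2 and 3 (4.61%). Pdk1 was among these members with voom, with or without the block, in the libraries with over 10000000 counts and in those numbered 2 and 3. Pgam1 was positive in all 27 fits beside the first (0.49 to 0.67), with an adjusted p from 0.0115 to 1. With library size alone 0 members had age groups without overlap. Of the further genes, 2 had an adjusted p under 0.05 with voom and the block, and 0 in the other fits. At an unadjusted p under 0.05 they numbered 5 with the shared block and 0 in edgeR without it. Without each library in turn, members at an adjusted p under 0.05 stayed at 0, at an unadjusted p under 0.05 at 1 and without overlap at 1. The pyruvate dehydrogenase difference of -0.21, with Pdk1 in the sum, was -0.017 as the mean of log2 CPM and -0.36 in males alone. Of 1022 single values under the alternatives, 95 had another sign than in edgeR, 1 of them where the estimate exceeded its standard error, Hk3 at -0.42 in males alone. The cause of these changes was not tested.

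The numbers in the titles were not taken as pairs. Deviations from the group means correlated at 0.025 to 0.56 in 15 pairs of libraries of the same number and at -0.51 to 0.40 in 30 pairs of other numbers. Such deviations cancel out within a group, so both sets of pairs are tied to each other. The values of middle-aged males 1 and 2 are exact mirror images. With the shared replicate block, Pgam1 had an adjusted p of 0.195 in edgeR, and the difference in the log2 ratio of glycolysis to citrate cycle was 0.12. Leaving out 1 library moved that difference between 0.04 (without young male 1) and 0.17 (without middle-aged female 1), glycolysis between 0.08 (without young male 3) and 0.20 (without middle-aged female 3), pyruvate dehydrogenase between -0.26 and -0.17 and the citrate cycle between -0.06 and 0.10. The share of Hk1 in hexokinase differed by -6.26 to -0.447 percentage points, the last without middle-aged female 2, that of Pfkp by 1.79 to 4.52, of Aldoa by 0.0306 to 0.144, of Ldha by -0.0013 to 1.00 and of Idh2 by -5.65 to -2.55. The shallowest libraries limit values under about 0.542 CPM.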

Other observations

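Among the further genes of the pathway, the level followed the number in the titles for several, named here after their values were seen. Sdhb, the iron-sulfur subunit of succinate dehydrogenase, averaged 705 CPM in the 4 libraries numbered 1 and 303 CPM in the other 7, whereas Sdha, the flavoprotein subunit of the same complex, averaged 297 and 464 CPM. Both subunits of the mitochondrial pyruvate carrier were higher in the libraries numbered 1, Mpc1 at 98.7 against 36.3 CPM and Mpc2 at 211 against 77.0 CPM. Acly, which makes cytosolic acetyl-CoA from citrate, averaged 102 CPM there and 327 CPM in the rest. Of the 58 further genes tested, 19 (32.8%) differed by number at an adjusted p under 0.05 in edgeR, against 26.3% of all genes tested.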
